A study of Mus musculus with 20 samples.

Results

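The genes of the voltage-gated sodium and calcium channels were followed through the development of the mouse habenula, a paired structure of the epithalamus whose medial and lateral nuclei differ in their neurons. Members were taken by symbol from the series' table of total counts: Scn followed by a number and a or b, or Cacna, Cacnb, Cacng or Cacnn with any ending. This gave 40 of 37994 genes, namely 10 sodium channel alpha subunits, 4 sodium channel beta subunits, 10 calcium channel alpha1 subunits, 4 alpha2delta subunits, 4 calcium channel beta subunits and 8 gamma subunits. The rule used names and no measured value, but it was set with earlier results of these data known. All 40 were also in the table of the second set of plates, and all 40 were found in GENCODE release M21 (GRCm38). They lie on 12 chromosomes, with 8 on chromosome 2, 7 on chromosome 9 and 6 on chromosome 11.

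Voltage-gated sodium channels carry the inward current of the action potential. Each has a pore-forming alpha subunit and accessory beta subunits, which are also adhesion molecules. In voltage-gated calcium channels the alpha1 subunit forms the pore and sets the current type (L, P/Q, N, R or T), the cytoplasmic beta subunit and the extracellular alpha2delta subunit bring high-voltage-activated channels to the membrane, and calcium entry triggers transmitter release and gene expression. Among the gamma genes, Cacng1 and Cacng6 encode muscle-type calcium channel subunits, and Cacng2, Cacng3, Cacng4, Cacng5, Cacng7 and Cacng8 encode TARPs, which escort AMPA-type glutamate receptors. Habenula neurons fire spontaneously, and T-type calcium channels are known for burst firing in the lateral habenula, while R-type channels are known from the terminals of medial habenula neurons.

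Single cells were sorted into 384-well plates and read with Cel-seq2, in which a poly-T primer gives each transcript a 6-base molecular identifier (UMI). The 15 plates of the developmental series hold cells of the Brn3a-tauLacZ reporter line (Brn3a is an earlier symbol of Pou4f1, a transcription factor of habenula neurons), and holds 2 plates per stage for embryonic days (E) 11, 13, 15 and 18, postnatal days (P) 4 and 7 and adults, plus a single E12 plate. Another 5 plates hold cells of C57BL/6 embryos of E18: left habenula (2 plates), right habenula (2) and both sides together (1). No treatment is given for any group, every plate of the series shares the reporter line, while nothing used here states the copies of the reporter allele, the adult age or how many animals filled a plate. The labels do not say that the plates of a stage came from separate animals, so p-values measure only the spread between plates, which may be technical.

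The plates were not alike in what they held. The series kept 3729 cells from 5756 wells, with 758697 to 7760372 counts per plate, and the second set kept 1082 cells. Of the kept cells, 2 of 267 on E18 plate 1, 0 of 137 on E13 plate 2 and 23 of 188 on E15 plate 1 fell in neuron-like or habenula-like clusters, against 95 of 110, 91 of 153 and 240 of 302 on the other plate of each stage. The summed neuron markers were 3115.0 and 7695.0 CPM (counts scaled to the same total on every plate) on E18 plates 1 and 2 and 10268.9 and 5488.1 at E13, but 9648.2 and 8997.1 on E15 plates 1 and 2, which does not follow the cluster names. Ttr, a choroid plexus gene, was highest on E13 plate 2, with 3706.4 CPM against 7.39 on E13 plate 1. E18 plates 1 and 2 held 802.2 and 4.52 of it, and E15 plates 1 and 2 held 70.8 and 0. Adult plate 1 held 56 cells with a median mitochondrial share of 11.9%. The tissue label was checked against Pou4f1, which was at 149.4 CPM on E18 plate 1 and at 837.8 on E11 plate 1, the lowest and the highest of the 15 plates, and against the summed medial habenula markers, which were at 265.9 CPM on E18 plate 1 and at 7773.8 on adult plate 2. Because of these mixtures, each test over stages was run on all kept cells and again on cells with at least 1 count of Pou4f1. These Pou4f1-positive cells were 70 of 137 on E13 plate 2 and 75 of 267 on E18 plate 1, and still held 2350.7 and 1377.1 CPM of Ttr there. In sums over a plate, fewer cells of a type and less RNA per cell cannot be told apart.

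Over the 8 stages in order, Scn2b of the sodium channel beta subunits, 1 alpha2delta subunit, the R-type pore gene and a beta subunit of calcium channels rose, while the P/Q-type and N-type pore genes, a T-type pore gene and another alpha2delta subunit fell. A slope per stage step was fitted by edgeR's quasi-likelihood test, and a gene was called where its Benjamini-Hochberg adjusted p over all genes was under 0.05. In all cells 16 of the 30 members tested were called, 11 higher and 5 lower with stage. Of all 15676 genes tested 38.3% were called, 20% higher and 18.2% lower. In Pou4f1-positive cells 22 of 30 were called, 16 higher and 6 lower, against 42.4% of all 14632 genes, 22.9% higher and 19.5% lower. All 16 members called in all cells were also called in the Pou4f1-positive cells, which are a subset of the same cells on the same plates. The median slope of the 30 members was 0.09 on the log2 scale in all cells and 0.10 in Pou4f1-positive cells, against 0.00 over all genes in both. Summed marker levels moved over the same stages in all cells. From E11 to the adult, medial habenula markers went from 676.7 and 694.3 to 5478.9 and 7773.8 CPM, neuron markers from 14350.5 and 14562.3 to 4703.1 and 4653.6, and dissociation response genes from 369.3 and 423.2 to 2370.1 and 3054.8. Their part in the slopes was not tested. With cells of neuron-like and habenula-like clusters, 21 of 30 members were called, against 43.9% of all genes in that fit. Leaving out each plate in turn gave 13 to 17 members called in all cells and 16 to 22 in Pou4f1-positive cells. Of all genes 32.3% to 43.4% and 34.9% to 45.1% were called in those fits. By role, the all-cell calls were 3 of 8 tested sodium channel genes, 7 of 8 calcium alpha1 genes, 2 of 3 alpha2delta genes, 1 of 4 calcium beta genes and 3 of 7 gamma genes.

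**Figure D1:**
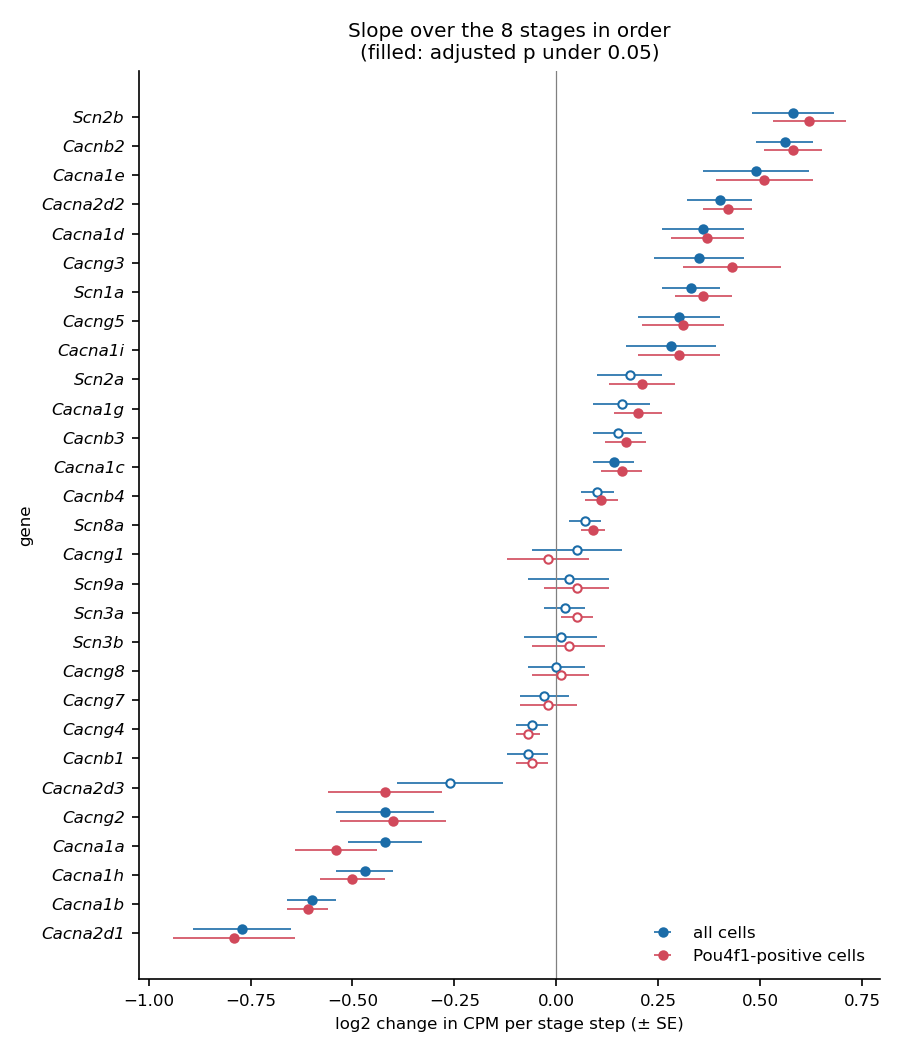
Slope of 29 of the tested members over the 8 stages in order, as the log2 change in CPM per stage step (x axis) with its standard error (bars), in all kept cells (blue) and in Pou4f1-positive cells (red). Filled points have an adjusted p under 0.05. Scn2b and Cacnb2 lie toward the right, at 0.58 and 0.56 in all cells, and Cacna2d1 lowest, at -0.77.

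The summed level of all members was lowest on E13 plate 2, at 2188.2 CPM, and highest on P4 plate 2, at 4819.9 CPM. The roles differed in which stages held most of that sum. The alpha2delta genes summed to 1196.8 and 1137.6 CPM at E11 and to 284.3 and 264.4 at P4, whereas the calcium alpha1 genes summed to 894.4 and 933.9 CPM at E11 and to 1772.2 and 2040.0 at P4. These sums are descriptions and were not tested.

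**Figure D2:**
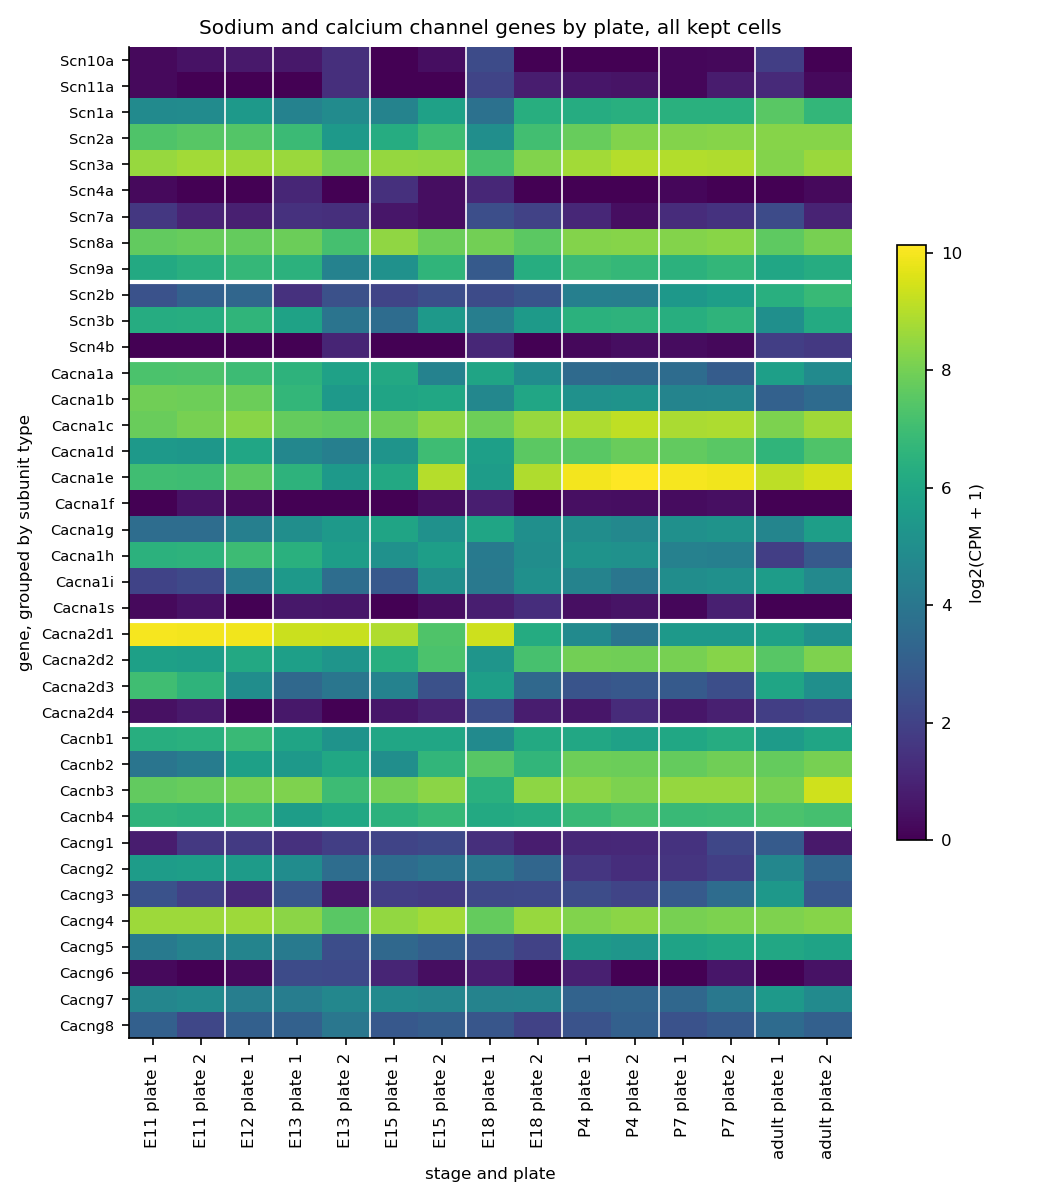
Level of 38 members (rows, grouped by subunit type with white lines) on each of the 15 plates of the series (columns, in stage order), as log2(CPM + 1) over all kept cells. Cacna2d1 is bright at E11, on both plates near 1000 CPM, and dark at P4, while Cacna1e is bright from P4 on.

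To show the start regions of members that moved with stage, the 250 bases before the RefSeq start (GRCm38.p6) are printed for the 4 members called in the all-cell slope whose window lies wholly outside the GENCODE gene. They are Cacna2d1 (chr5:15934441-15934690, plus strand), Cacna1b (chr2:24763153-24763402, minus strand), Cacna1i (chr15:80286988-80287237, plus strand) and Cacng5 (chr11:107915056-107915305, minus strand). Each is read 5′ to 3′ along the gene's strand, and capitals mark matches to the motifs searched.
Cacna2d1: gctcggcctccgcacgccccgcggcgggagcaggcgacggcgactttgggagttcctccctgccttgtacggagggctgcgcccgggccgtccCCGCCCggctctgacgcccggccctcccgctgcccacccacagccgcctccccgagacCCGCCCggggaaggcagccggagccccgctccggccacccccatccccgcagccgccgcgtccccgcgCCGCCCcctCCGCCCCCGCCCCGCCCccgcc
Cacna1b: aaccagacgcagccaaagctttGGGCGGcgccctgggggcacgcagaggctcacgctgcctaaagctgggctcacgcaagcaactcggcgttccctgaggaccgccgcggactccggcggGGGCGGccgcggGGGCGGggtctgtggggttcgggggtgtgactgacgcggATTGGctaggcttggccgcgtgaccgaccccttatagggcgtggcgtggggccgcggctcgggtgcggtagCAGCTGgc
Cacna1i: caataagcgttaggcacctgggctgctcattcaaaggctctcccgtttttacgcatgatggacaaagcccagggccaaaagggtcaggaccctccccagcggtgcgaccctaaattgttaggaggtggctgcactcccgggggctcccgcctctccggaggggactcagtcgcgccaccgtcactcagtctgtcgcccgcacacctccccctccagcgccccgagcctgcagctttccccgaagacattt
Cacng5: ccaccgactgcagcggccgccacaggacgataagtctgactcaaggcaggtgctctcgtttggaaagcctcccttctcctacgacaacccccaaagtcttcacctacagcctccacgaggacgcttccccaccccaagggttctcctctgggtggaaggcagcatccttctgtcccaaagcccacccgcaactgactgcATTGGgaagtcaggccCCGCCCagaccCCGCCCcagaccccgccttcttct
The Cacna2d1 window held 6 GC boxes (GGGCGG on either strand, a pair of which share a base) and was 82.4% G and C. The Cacna1b window held 3 GC boxes, 1 CCAAT box and 1 CAGCTG E-box at 72% G and C. Cacng5 had 2 GC boxes and 1 CCAAT box, and the Cacna1i window matched none. So the 2 falling genes had 6 and 3 GC boxes and the 2 rising ones 0 and 2, a description of 4 sequences only.

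The motif search covered both strands of the same windows for the 30 members matched by symbol in the RefSeq table, with 41 start entries. GGGCGG was in 15 of these 41 entries and in 32.7% of all 32851 promoters, CCAAT in 10 and 33.8%, CAGCTG in 11 and 13%, and TATAAA in 2 and 12.4%. GGACAGC, the right part of the RE1 element bound by REST, was in 1 member entry and 5.28% of all promoters. CACGTG (6.02% of all), TGACGTCA (1.55%) and TTCAGCACC, the left part of RE1 (0.301%), were in 0 of the 41. The median G and C content was 56.8% over member entries and 52.4% over all promoters. A match is a description of letters and not a binding site.

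Scn1a, Scn2a, Scn3a, Scn7a and Scn9a lie in 1 cluster on chromosome 2, between 65457118 and 66784914. Scn3a encodes Nav1.3, the alpha subunit best known from embryonic neurons, and had the highest mean level of the sodium channel genes. Its level was 375.8 and 417.2 CPM (E11), 413.5 (E12), 386.0 and 254.6 (E13), 365.6 and 353.3 (E15), 143.7 and 298.6 (E18), 421.5 and 506.2 (P4), 502.2 and 481.5 (P7), and 301.3 and 387.6 (adult). The E11 and the adult plates overlapped in range with those between them. The slope of Scn3a was 0.02 ± 0.05 (log2 per step ± SE, adjusted p = 0.752) in all cells.

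Scn1a encodes Nav1.1 and rose with stage. It was at 27.6 and 28.6 CPM (E11), 43.2 (E12), 21.6 and 28.2 (E13), 22.3 and 55 (E15), 12.8 and 81.4 (E18), 75.5 and 83.6 (P4), 85.1 and 84.8 (P7), and 185.4 and 103.5 (adult). Both adult plates lay above every earlier plate, and E18 plate 2 lay within the postnatal range while E18 plate 1 was the lowest of all. The slope was 0.33 ± 0.07 (adjusted p = 0.00238) in all cells and 0.36 ± 0.07 (adjusted p = 4.4e-04) in Pou4f1-positive cells, and the call held in every fit that left out 1 plate.

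Scn2a encodes Nav1.2, an alpha subunit of axon initial segments, and was at 160.4 and 177.6 CPM (E11), 170.5 (E12), 119.9 and 43.5 (E13), 76 and 126.3 (E15), 31.1 and 131.2 (E18), 218.1 and 294.7 (P4), 301.4 and 313.2 (P7), and 315.0 and 315.4 (adult). All 6 postnatal and adult plates lay above all 9 embryonic plates. Its slope was called in Pou4f1-positive cells only, at 0.21 ± 0.08 (adjusted p = 0.0377; 0.18 ± 0.08 and 0.0957 in all cells), the difference between the cell sets was not tested, and the call was lost without any 1 of E13 plate 1, E15 plate 2, P4 plate 2, either P7 plate or either adult plate. Scn8a, which encodes Nav1.6, ranged from 141.9 CPM on E13 plate 2 to 343.8 on E15 plate 1. Its slope in Pou4f1-positive cells was small, 0.09 ± 0.03 (adjusted p = 0.0422), and that call held in 3 of the 15 fits that left out 1 plate. The plates that ended it were both of E11, E13, P4 and P7, the E12 plate, E15 plate 2, E18 plate 2 and adult plate 2.

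Between genes, levels are compared here as shares of spliced UMIs, because a UMI tags 1 transcript whatever its length while unspliced counts differ between genes (0.419% to 89.1% of the UMIs of members with at least 100). Scn3a held the highest spliced share of the sodium alpha genes on 13 of 15 plates. The exceptions were Scn8a on E18 plate 1, at 53.8%, and Scn2a on adult plate 1, at 32.4%. The share of Scn3a was 48.3% and 47.9% at E11 and 25.9% and 33.9% in the adult. Scn2a went from 21% and 20.6% to 32.4% and 28.8% over the same stages, and Scn1a from 1.01% and 1.53% to 13.5% and 6.86%. Scn8a stood at 20.8% and 20.4% at E11 and at 23% and 24.2% in the adult. The adult shares rest on 482 and 3719 spliced UMIs.

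**Figure D3:**
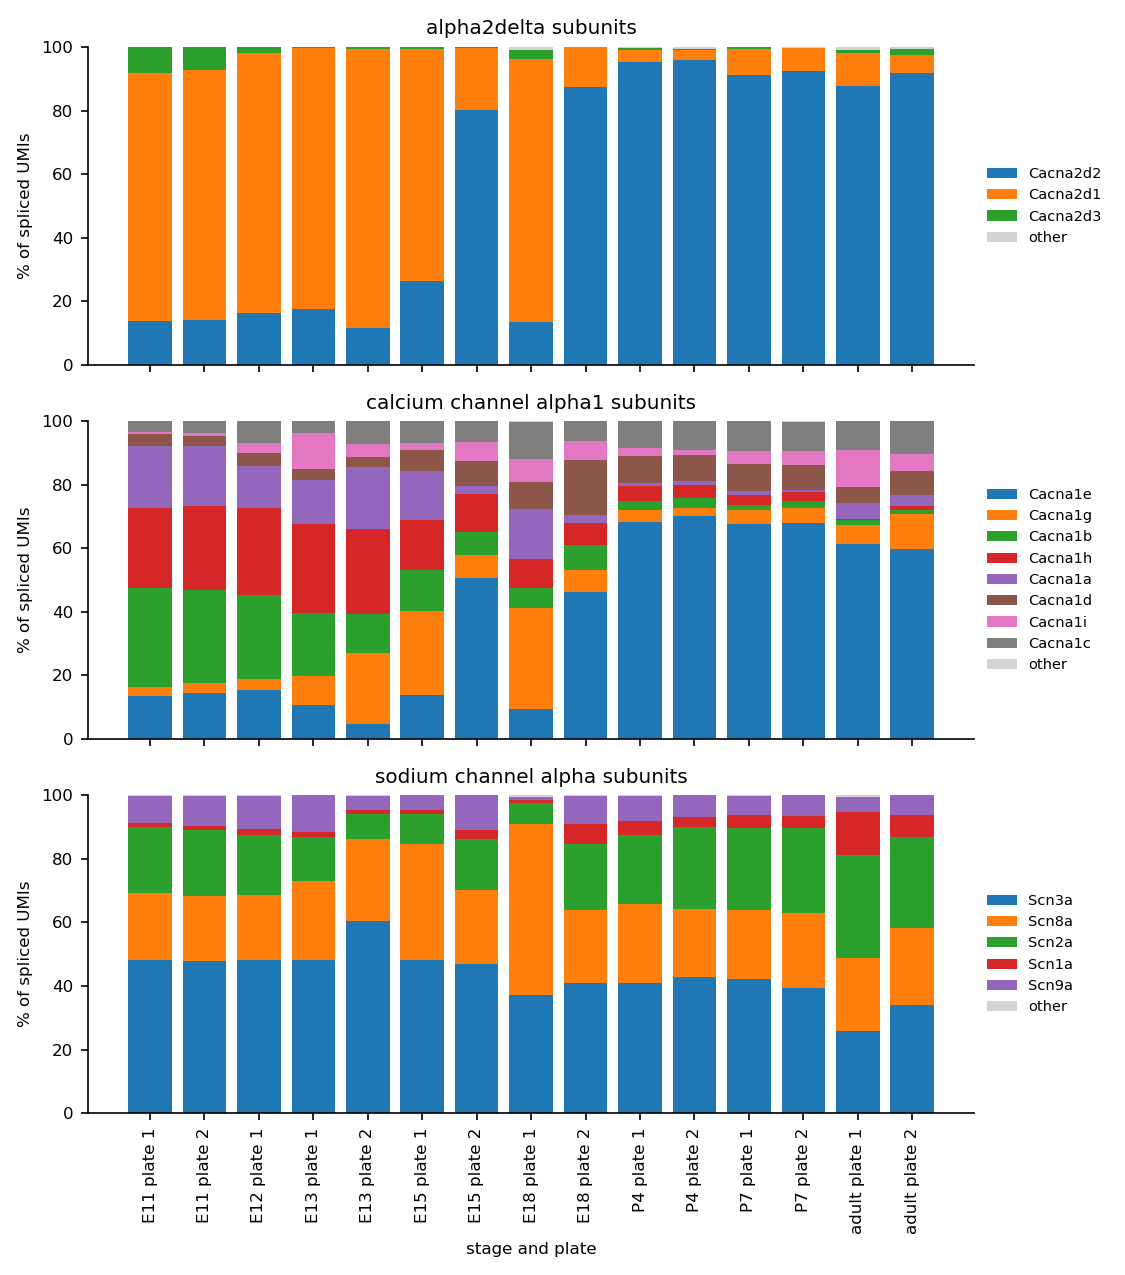
Share of each gene in the spliced UMIs of its role (y axis, percent) on each of the 15 plates (x axis, in stage order), for alpha2delta subunits, calcium alpha1 subunits and sodium alpha subunits, all kept cells. Cacna2d1 fills 78.1% and 78.8% of the alpha2delta bars at E11, and Cacna2d2 fills 95.3% and 96% at P4, with the 2 plates of E15 and of E18 on opposite sides.

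Among the sodium channel beta subunits, Scn2b encodes beta2, which is linked covalently to alpha subunits. It was at 4.83 and 7.76 CPM (E11), 9.27 (E12), 1.7 and 4.78 (E13), 3.26 and 4.46 (E15), 3.99 and 5.27 (E18), 19.7 and 18.9 (P4), 41.2 and 50.7 (P7), and 81.8 and 112.2 (adult). Each stage from P4 on lay above the one before it without overlap, and every embryonic plate lay below the P4 plates. The slope was 0.58 ± 0.10 (adjusted p = 4.6e-04), and 0.62 ± 0.09 in Pou4f1-positive cells (adjusted p = 1.1e-04). The gene Gm10684 overlaps the end of Scn2b on the other strand, and whether counting used strand is not stated, so its level is uncertain. Scn3b, which encodes beta3, was the most abundant of the 4 beta genes by spliced UMIs at E11, at 93.4% and 89.1%, and stood at 15.8% and 27.4% in the adult, where Scn2b held 46.6% and 48%. Its own slope was 0.01 ± 0.09 (adjusted p = 0.922), with levels from 10.9 CPM on E15 plate 1 to 96.7 at E12.

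Among the calcium channel pores, Cacna1e, the R-type alpha1 subunit (Cav2.3), had the highest mean level. It was at 129.1 and 125.5 CPM (E11), 187.6 (E12), 91.5 and 42 (E13), 67.9 and 512.7 (E15), 47.9 and 482.2 (E18), 982.1 and 1119.9 (P4), 1015.2 and 955.7 (P7), and 557.9 and 709.9 (adult). The P4 and P7 plates were the 4 highest, and both adult plates lay above every embryonic plate of the series. The series plates of E15 and of E18 differed by several fold. The E18 plates of the second set held 559.2 to 709.8 CPM, a range that lies between the adult plates. The slope was 0.49 ± 0.13 (adjusted p = 0.00863), and 0.51 ± 0.12 in Pou4f1-positive cells (adjusted p = 0.00344). Cacna1e made up 13.7% and 14.5% of the spliced calcium alpha1 UMIs at E11, 68.4% and 70% at P4, and 61.3% and 59.9% in the adult.

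The pores of the P/Q and N types fell. Cacna1b, the N-type subunit (Cav2.2), was at 241.1 and 237.3 CPM (E11), 229.1 (E12), 102.8 and 43.5 (E13), 59.7 and 64.5 (E15), 25.1 and 63.3 (E18), 34.1 and 36 (P4), 22.9 and 23.7 (P7), and 7.91 and 10.5 (adult). The E11 and E12 plates were the highest and the adult plates the lowest, with no overlap with any stage between. The slope was -0.60 ± 0.06 (adjusted p = 3.4e-06) in all cells and -0.61 ± 0.05 (adjusted p = 5.0e-07) in Pou4f1-positive cells. Its spliced share of the alpha1 genes was 31.1% and 29.4% at E11, against 1.49% and 1.14% in the adult.

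Cacna1a, the P/Q-type subunit (Cav2.1), was at 150.4 and 156.6 CPM (E11), 121.2 (E12), 92.1 and 55.2 (E13), 68.4 and 21.4 (E15), 59.1 and 29.4 (E18), 10.3 and 9.82 (P4), 11 and 6.68 (P7), and 51.5 and 28 (adult). Its lowest plates were those of P4 and P7, and both adult plates lay above them. The slope was -0.42 ± 0.09 (adjusted p = 0.00222), and -0.54 ± 0.10 in Pou4f1-positive cells (adjusted p = 7.3e-04), where the adult plates stood at 52.2 and 8.71 CPM.

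The 3 T-type genes did not move together. Cacna1h (Cav3.2) was at 89.5 and 93.8 CPM (E11), 121.4 (E12), 85.2 and 48.3 (E13), 34.2 and 50.8 (E15), 17.2 and 30.1 (E18), 35.8 and 34.2 (P4), 20.8 and 19.5 (P7), and 2.64 and 6.16 (adult). It fell, with a slope of -0.47 ± 0.07 (adjusted p = 1.6e-04) and the adult plates below all others. Tpsg1 overlaps its end on the other strand, so its level is uncertain. Cacna1i (Cav3.3) was at 3.09 and 3.68 CPM (E11), 17.7 (E12), 42.6 and 11.2 (E13), 5.97 and 31.5 (E15), 16 and 33.2 (E18), 22.1 and 14.9 (P4), 30 and 33.4 (P7), and 47.5 and 26.6 (adult). Only the E11 plates stood apart from the rest, as the lowest. Its slope of 0.28 ± 0.11 was close to the threshold (adjusted p = 0.0476) and was lost in 9 of the 15 fits that left out 1 plate: either plate of E11, P7 or the adult, E13 plate 2, E18 plate 1 and P4 plate 1. Cacna1g (Cav3.1) was at 11.4 and 11.2 CPM at E11 and between 19.6 and 60.3 on all later plates. Its slope was called in Pou4f1-positive cells, at 0.20 ± 0.06 (adjusted p = 0.0187), but not without either E11 plate or adult plate 2, and was 0.16 ± 0.07 (adjusted p = 0.0933) in all cells.

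Of the L-type pores, Cacna1d (Cav1.3) was at 44.1 and 40 CPM (E11), 63.6 (E12), 25 and 19.6 (E13), 36.4 and 125.2 (E15), 52.3 and 189.2 (E18), 185.8 and 223.1 (P4), 205.6 and 184.8 (P7), and 97.7 and 161.8 (adult). It rose by 0.36 ± 0.10 per step (adjusted p = 0.00829), with E15 plate 2 and E18 plate 2 among the postnatal and adult values and the other plates of those stages below them. Chdh overlaps its end on the other strand, which makes its level uncertain. Cacna1c (Cav1.2) ranged from 195.5 CPM on E13 plate 2 to 575.8 on P4 plate 2. Its slope was 0.14 ± 0.05 (adjusted p = 0.0426) in all cells and was lost without E11 plate 1, E15 plate 1, P4 plate 1, adult plate 2, or any 1 plate of E13 or P7. In Pou4f1-positive cells it was 0.16 ± 0.05 (adjusted p = 0.0139) and held without each plate.

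**Figure D4:**
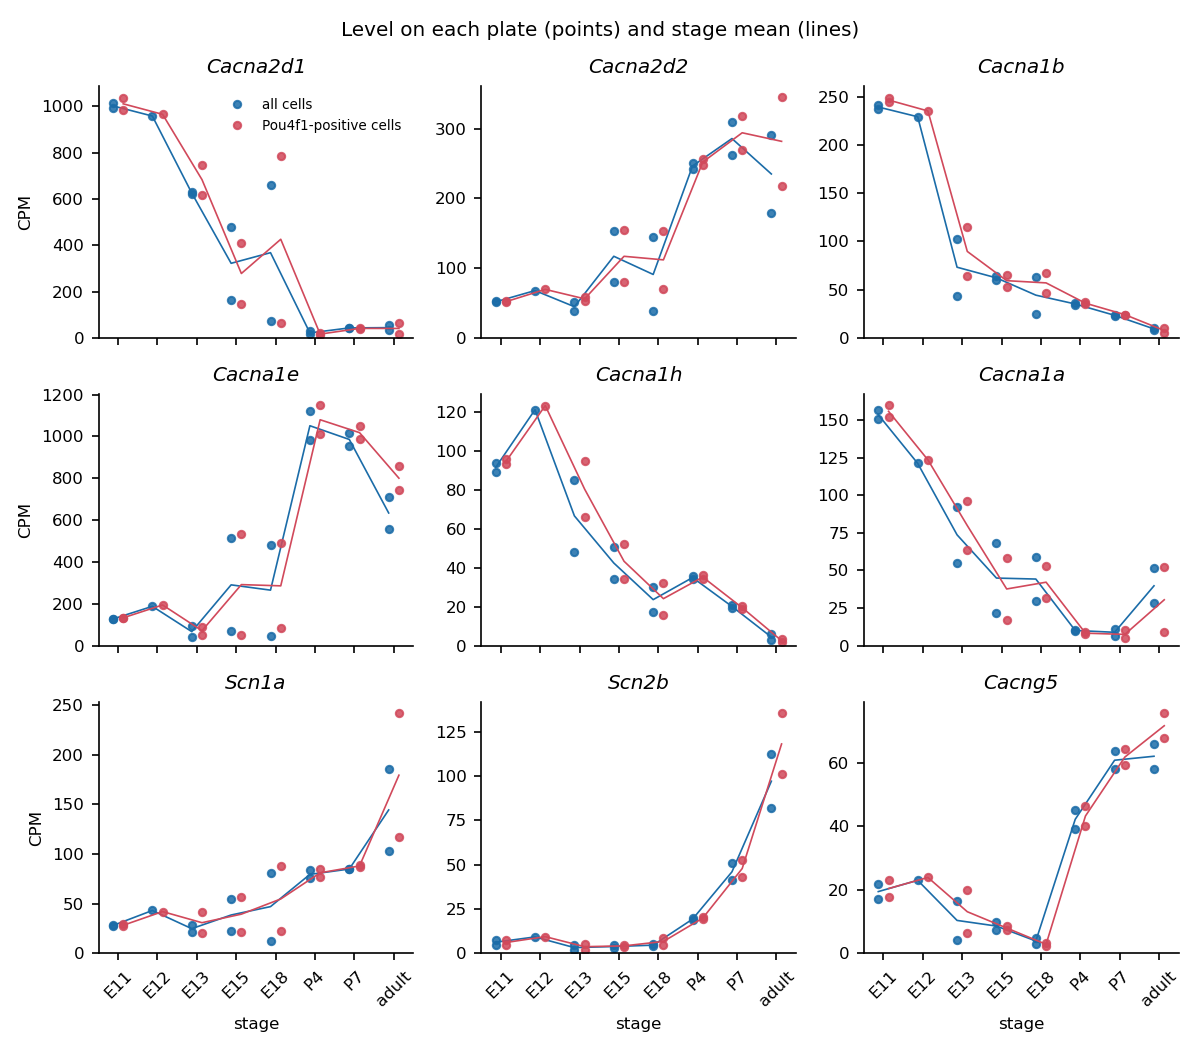
Level in CPM (y axis, linear, from 0) of 9 members on each plate (points) with the stage mean (lines), by stage (x axis), in all kept cells (blue) and Pou4f1-positive cells (red). Cacna2d1, Cacna1b, Cacna1h and Cacna1a are highest at E11 or E12, Scn1a and Scn2b in the adult. The 2 plates of E15 and of E18 lie far apart for Cacna2d1 and Cacna1e.

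The alpha2delta genes exchanged places. Cacna2d1, which encodes alpha2delta-1, a receptor of gabapentin, was at 1013.0 and 991.0 CPM (E11), 958.1 (E12), 630.4 and 620.9 (E13), 480.4 and 163.3 (E15), 661.0 and 74.6 (E18), 27.8 and 14.4 (P4), 42.7 and 42.6 (P7), and 54.2 and 33.6 (adult). The E11 and E12 plates were the highest and every plate from P4 on lay below every embryonic plate, while E18 plate 1 lay above both E13 plates and far from E18 plate 2. The slope was -0.77 ± 0.12 in all cells (adjusted p = 2.3e-04) and -0.79 ± 0.15 in Pou4f1-positive cells (adjusted p = 5.2e-04), the steepest fall among the members.

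Cacna2d2, which encodes alpha2delta-2, was at 52.5 and 50.7 CPM (E11), 67.8 (E12), 51.1 and 38.2 (E13), 80.4 and 153.7 (E15), 37.9 and 144.0 (E18), 250.7 and 242.7 (P4), 261.9 and 310.2 (P7), and 179.6 and 290.8 (adult). All plates from P4 on lay above all embryonic plates of the series. The E18 plates of the second set held 159.6 to 264.1 CPM, which overlaps the range from P4 on. It rose by 0.40 ± 0.08 per step (adjusted p = 8.5e-04), and by 0.42 ± 0.06 in Pou4f1-positive cells (adjusted p = 4.2e-05). In spliced UMIs Cacna2d1 held 78.1% to 87.6% of the alpha2delta genes on the plates from E11 to E13 and 2.94% to 10.4% from P4 on. On E15 plates 1 and 2 it held 72.8% and 19.4%, and on E18 plates 1 and 2 it held 82.5% and 12.6%. Both plates with the high share had few cells in clusters named neuron-like. On E18 plate 1 the neuron markers were also low, and 186 of 267 cells were in clusters given no class name. Those 186 cells held 900.5 CPM of Cacna2d1. On E15 plate 1 the neuron markers were not low, and there 146 of 188 cells were in intermediate progenitor-like clusters and 80.9% were Pou4f1-positive. The part of the cell mixture in this difference was not tested.

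Within cell classes of 1 plate the same gene ranged widely. In neuron-like cells Cacna2d1 was at 999.8 and 915.1 CPM on the E11 plates, 978.9 on the E12 plate, 373.5 on E13 plate 1, 127.7 and 46 at E15 and 46.1 on E18 plate 2. In intermediate progenitor-like cells it was at 1839.5 and 1718.7 (E11), 2002.1 (E12), 1562.6 and 941.6 (E13), and 447.0 and 582.9 (E15). In both classes the plates of E13 and later lay below those of E11 and E12. Each class pools several clusters with different main plates: clusters 0 and 8, led by E11 plate 2, 3, led by E12, and 1, led by E15 plate 2, for neuron-like cells, and clusters 11, 13 and 7, led by E11 plate 2, E13 plate 2 and E15 plate 1, for intermediate progenitor-like cells.

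Cacna2d3, which encodes alpha2delta-3, was at 130.9 and 95.3 CPM (E11), 30.3 (E12), 9.66 and 14.9 (E13), 21.2 and 4.75 (E15), 50.3 and 9.8 (E18), 5.26 and 5.98 (P4), 6.32 and 4.4 (P7), and 60.7 and 32 (adult). It was high at E11, low at P4 and P7, and higher again in the adult. Its slope was -0.26 ± 0.13 in all cells (adjusted p = 0.112) and -0.42 ± 0.14 in Pou4f1-positive cells (adjusted p = 0.0215), the latter lost without either E11 plate. Of its UMIs 83.2% were unspliced. Cacna2d4 ranged from 0 to 4.39 CPM.

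Of the cytoplasmic beta subunits, Cacnb2 rose. It was at 14.3 and 18 CPM (E11), 52.9 (E12), 43.2 and 63.8 (E13), 30.9 and 99.3 (E15), 179.1 and 101.8 (E18), 234.2 and 233.3 (P4), 209.5 and 245.1 (P7), and 211.6 and 262.1 (adult). The E11 plates were the lowest and every plate from P4 on lay above every embryonic plate. The slope was 0.56 ± 0.07 (adjusted p = 3.3e-05), and 0.58 ± 0.07 in Pou4f1-positive cells (adjusted p = 1.3e-05), where E18 plate 1 stood at 55.1 CPM. Cacnb3 had the highest mean level of the 4 and 58.9% to 79.5% of their spliced UMIs. It was lowest at 84.2 CPM on E18 plate 1 and highest at 675.2 on adult plate 2, against 268.2 on adult plate 1. Its slope was 0.17 ± 0.05 in Pou4f1-positive cells (adjusted p = 0.00655), lost without adult plate 2, and 0.15 ± 0.06 in all cells (adjusted p = 0.0761). Cacnb4 lay between 48.9 and 154.5 CPM, and its slope of 0.11 ± 0.04 in Pou4f1-positive cells (adjusted p = 0.0433) held in 4 of 15 fits, being kept only without E11 plate 1, the E12 plate or 1 of the E18 plates. A430018G15Rik overlaps its end on the other strand. Cacnb1 lay between 27.9 and 115.0 CPM and passed no test.

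Among the gamma genes Cacng4, a TARP, was the most abundant at every stage, with 61% to 89.9% of their spliced UMIs and levels from 187.1 CPM on E13 plate 2 to 425.4 on E15 plate 2. Its slope was -0.06 ± 0.04 (adjusted p = 0.269). Cacng5 was at 17 and 21.9 CPM (E11), 23 (E12), 16.5 and 4.25 (E13), 9.77 and 7.43 (E15), 4.79 and 3.01 (E18), 45.1 and 39.3 (P4), 57.9 and 63.7 (P7), and 66 and 58.1 (adult). Its lowest values in the series were those of E18 and of E13 plate 2, while the E18 plates of the second set held 7.57 to 21.5 CPM. Every plate from P4 on lay above every embryonic plate of both sets. Its slope of 0.30 ± 0.10 (adjusted p = 0.0339) was lost without E13 plate 1 or any 1 plate of P7 or the adult.

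Cacng2, which encodes stargazin, ran the other way. It was at 47.1 and 50.9 CPM (E11), 46.6 (E12), 29.5 and 11.2 (E13), 10.9 and 13.7 (E15), 14.8 and 9.04 (E18), 2.04 and 1.53 (P4), 1.93 and 2.64 (P7), and 25.1 and 8.55 (adult). The P4 and P7 plates were the lowest, and the adult plates lay above them. Its slope was -0.42 ± 0.12 (adjusted p = 0.00999). Cacng3 was at 41 CPM on adult plate 1, against 5.77 on adult plate 2 and 0.531 to 10.9 on the other plates. Its slope of 0.35 ± 0.11 (adjusted p = 0.016) rested on that plate and had an adjusted p of 0.117 without it. Cacng7 was at 24.1 and 28 CPM at E11, 8.31 and 8.89 at P4 and 43.5 and 27.6 in the adult, with a slope of -0.03 ± 0.06 (adjusted p = 0.766).

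The remaining members stayed low or were not called in any comparison. Scn9a (Nav1.7) ranged from 6.38 to 117.7 CPM, and Gm13629 overlaps its end on the other strand. Scn10a ranged from 0 to 3.99 CPM, Scn11a from 0 to 3.19, Scn4a from 0 to 1.63, Scn7a from 0.297 to 4.39 and Scn4b from 0 to 2.64. These are genes of sensory ganglia, muscle or glia, apart from Scn4b. Cacna1f ranged from 0 to 0.798 CPM, Cacna1s from 0 to 1.51, Cacng1 from 0.596 to 6.59, Cacng6 from 0 to 3.98 and Cacng8 from 3.01 to 15.4. Cacna1s and Cacng8 overlap another gene at their end. Scn11a, Scn4a, Scn4b, Cacna1f and Cacna1s were among those that passed the filter on low counts in none, and Scn4a and Cacna1f, with 12 and 14 counts over all kept cells, were near the limit of detection.

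Successive stages were compared in 1 fit over the 14 plates of stages with 2 plates, so neighbouring comparisons share plates. Most calls fell between E18 and P4, as did those of all genes, with 3421 there and 625 or fewer in each other step. From E11 to E13 the only member called in all cells was Cacna2d3, lower at E13 with a log2 difference of -3.35 ± 0.69 (adjusted p = 0.0399), 1 of 34 tested against 1.45% of all 17453 genes, 0.854% higher and 0.596% lower. Without any 1 plate of E11, E13, P4 or P7 this call was lost, and without E13 plate 1 a different pair of members was called. The count was 0 without either P4 or P7 plate (0.607% to 0.731% of all genes) and 2 without any 1 plate of E15 or the adult (1.42% to 1.68%). It was 5 or 6 without E18 plate 1 or 2 (5.5% and 4.66% of all genes in those fits). Without either E11 plate or E13 plate 2 a compared stage keeps a lone plate, and the share of all genes called fell there too. DESeq2 called 6 of 30, against 5.45% of all genes, and with no filter on low counts 13 of 40 were called, against 4.56%. From E13 to E15, 0 of 34 were called (0.0917% of all genes, 0.0516% higher and 0.0401% lower), with 5 members (14.7%, against 12.5% of all genes) at an unadjusted p under 0.05 and 1 of 30 called by DESeq2 (2.55% of all genes). From E15 to E18, 0 were called (0.195% of all genes, 0.16% higher and 0.0344% lower), with 5 at an unadjusted p under 0.05 (14.7%, against 17.2% of all genes), 0 by DESeq2, and 9 of 37 called without E18 plate 2 (10.5% of all genes). From P4 to P7, 0 were called (0.00573% of all genes), with 3 at an unadjusted p under 0.05 (8.82%, against 2.72% of all genes), among them Scn2b at 1.23 ± 0.32, and 0 by DESeq2. Fitted on only the 4 plates of both stages, 6 of 30 members were called, against 3.64% of all genes in that fit.

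The comparisons before E18 were also made in the other choices of cells. In Pou4f1-positive cells 3 of 32 members were called from E11 to E13, against 1.78% of all 16353 genes. Cacna2d3 was lower at E13, at -4.33 ± 0.65 (adjusted p = 0.00693), Cacna1b was lower, at -1.56 ± 0.29 (adjusted p = 0.0215), and Cacna1i was higher, at 3.09 ± 0.61 (adjusted p = 0.0257). In the fits that left out a plate of another stage the count there was 2 to 4 (0.812% to 2.85% of all genes). Without either E11 plate or E13 plate 2, where a compared stage keeps a lone plate, fewer members and a smaller share of all genes were called. From E13 to E15 and from E15 to E18, 0 of 32 were called in Pou4f1-positive cells (0.11% and 0.159% of all genes), and 0 by DESeq2 (2.02% and 1.5%). Leaving out a plate added no call. At an unadjusted p under 0.05 there were 6 (18.8%, against 11.6% of all genes) and 2 (6.25%, against 11.4%). With no filter on low counts 12 of 40 were called from E11 to E13, 5 of 40 from E13 to E15 and 0 of 40 from E15 to E18. The shares of all genes were 4.06%, 2.56% and 1.66%. DESeq2 called 5 of 30 from E11 to E13, against 4.29% of all genes. In neuron-like and habenula-like clusters E13 and E18 keep a single plate each, assumed to vary like the other stages, so only sizes are given. The members called there from E11 to E13 were Cacna2d3 at -5.52, Cacna1i at 4.30, Cacna1b at -1.11 and Cacnb2 at 1.62. From E13 to E15 they were Cacna2d1 at -2.53 and Cacna1d at 1.79, and from E15 to E18 no member was called.

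From E18 to P4, 10 of 34 members were called in all cells, 5 higher and 5 lower, against 19.6% of all genes, 9.2% higher and 10.4% lower. Fitted on only the 4 plates of both stages the count was 1 of 30 (3.58% of all genes), and with no filter on low counts it was 19 of 40 (12.8% of all genes). Among those that rose, Cacng5 did so by 3.60 ± 0.49 (log2 ± SE, adjusted p = 0.00166), Scn2b by 2.32 ± 0.40 (adjusted p = 0.00433), Scn3a by 1.27 ± 0.37 (adjusted p = 0.0341) and Cacnb4 by 1.01 ± 0.21 (adjusted p = 0.00984). Of those that fell, Cacna2d1 stood at -3.85 ± 0.80 (adjusted p = 0.00911), Cacng2 at -2.52 ± 0.60 (adjusted p = 0.0169), Cacna2d3 at -2.21 ± 0.67 (adjusted p = 0.0415), Cacna1a at -1.91 ± 0.52 (adjusted p = 0.0275) and Cacng7 at -1.16 ± 0.32 (adjusted p = 0.0301). As folds these are 12.1 for Cacng5 and 5.0 for Scn2b, higher at P4, and 14.4 for Cacna2d1, lower at P4. They rest on the 2 E18 plates of the series. On the 5 E18 plates of the second set, outside this fit, Cacng5 was at 7.57 to 21.5 CPM and Scn2b at 5.41 to 9.29. Cacna2d1 was at 175.0 to 275.0 there, against 661.0 and 74.6 in the series. Scn3a was at 320.0 to 430.9, against 143.7 and 298.6. Without E18 plate 1 the log2 difference of Cacna2d1 was -1.71 and that of Cacna2d3 was -0.67, and neither was called. The median over the 34 members was 0.70, and -0.07 over all genes. In Pou4f1-positive cells 13 of 32 were called, 8 higher and 5 lower, against 20.4% of all 16353 genes, 9.97% higher and 10.4% lower. These held the same 10 genes and Cacna2d2 at 1.30 ± 0.40 (adjusted p = 0.0372), Cacnb2 at 1.65 ± 0.41 (adjusted p = 0.0164) and Scn2a at 1.64 ± 0.51 (adjusted p = 0.0406).

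Most of these calls were lost without any 1 of 3 plates, E18 plate 1 (the plate with 2 neuron-like cells), P4 plate 1 or P4 plate 2. In both choices of cells fewer members were called without any 1 of these 3 plates, and more without E18 plate 2. All genes were also called less often without any 1 of the 3. Without E18 plate 2 all genes were called more often in all cells but not in Pou4f1-positive cells. Without E18 plate 1 the members were called less often than all genes in both. Cacng5 and Scn2b were called in all 14 fits that left out a plate in all cells. In Pou4f1-positive cells Cacng5, at 4.03 ± 0.49 (adjusted p = 4.8e-04), was called in all 14 and Scn2b was lost without E18 plate 2. The other 8 all-cell calls were lost without E18 plate 1 or P4 plate 2, all but Cacnb4 without P4 plate 1, and Cacna2d3, Scn3a and Cacng7 also without a plate of another stage. Several lost calls kept most of their size without E18 plate 1 in all cells, where Cacng2 was at -2.21, Cacng7 at -1.27 and Cacnb4 at 0.85. In Pou4f1-positive cells without that plate Cacna2d1 was at -1.91, Cacna2d3 at -0.85, Cacng2 at -2.22 and Scn2a at 1.01. Such fits leave E18 a lone plate, assumed to vary like the other stages. Within cells of neuron-like and habenula-like clusters, where E18 plate 1 and E13 plate 2 drop out for want of cells, 6 of 34 members were called, against 15.3% of all genes in that fit. Cacng5 was called there at 3.79, Scn2b at 2.10, Cacnb2 at 1.19 and Scn2a at 0.97, whereas Cacna2d1 stood at -1.20 and was not called, against -4.50 in Pou4f1-positive cells. Other rises were not called there, with Cacnb4 at 0.80, Cacna2d2 at 0.79 and Scn3a at 0.69. Of the calls toward lower levels in Pou4f1-positive cells, none was called in these clusters. Cacng2 stood there at -2.25, Cacna2d3 at -1.93, Cacna1a at -1.88 and Cacng7 at -1.02. Beside E18 plate 2 alone, whose cells are mostly neuron-like, the P4 plates stood at 27.8 and 14.4 CPM of Cacna2d1 where that plate had 74.6, and at 982.1 and 1119.9 CPM of Cacna1e where it had 482.2.

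From P7 to the adult, 4 of 34 members were called in all cells, 3 higher and 1 lower, against 3.58% of all genes, 1.76% higher and 1.82% lower. Cacna2d3 rose by 2.90 ± 0.68 (adjusted p = 0.0433), Cacng2 by 2.57 ± 0.60 (adjusted p = 0.0418) and Cacng7 by 1.35 ± 0.32 (adjusted p = 0.042), and Cacna1h stood lower, at -2.03 ± 0.45 (adjusted p = 0.0355). In Pou4f1-positive cells 5 of 32 were called, 3 higher and 2 lower, against 3.68% of all genes, 1.35% higher and 2.34% lower. There Cacng2 rose by 2.69 ± 0.65 (adjusted p = 0.0419), Cacng7 by 1.39 ± 0.31 (adjusted p = 0.0329) and Scn2b by 1.22 ± 0.28 (adjusted p = 0.0353), while Cacna1h was at -2.77 ± 0.46 (adjusted p = 0.00684) and Cacna1b at -1.53 ± 0.37 (adjusted p = 0.0426). Cacna2d3 was not called there, at 2.23 ± 0.63 (adjusted p = 0.0679). From P4 to P7 in these cells 0 of 32 were called (0.00612% of all genes), with 3 at an unadjusted p under 0.05 (9.38%, against 3.37% of all genes) and 1 called by DESeq2.

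Most adult calls were close to the threshold, with adjusted p from 0.0329 to 0.0433 apart from Cacna1h in Pou4f1-positive cells (0.00684). In all cells 0 members were called without either E11 or P4 plate (1.29% to 1.34% of all genes) and 7 without E18 plate 2 (7.87%). In Pou4f1-positive cells the count was 1 without either P4 plate (1.75% and 1.63% of all genes) and 2 without either E11 plate (1.7% and 1.68%). Leaving out either P7 plate or adult plate 1 leaves a compared stage a lone plate. There fewer members were called in both choices of cells, and the share of all genes called fell as well. Cacna1h in Pou4f1-positive cells was lost only without P7 plate 1 or adult plate 2. The summed oligodendrocyte lineage markers (10 of 10 genes found) were at 198.2 and 145.0 CPM at P7 and at 10460.5 and 3046.1 in the adult, and at 127.8 and 19.7 against 4608.3 and 466.7 in Pou4f1-positive cells. The lateral habenula markers (8 of 8) went from 667.4 and 743.7 to 1359.4 and 1133.9, and the dissociation response genes (10 of 10) from 1002.7 and 1260.2 to 2370.1 and 3054.8. On adult plate 2, Cacna2d3 was at 210.7 CPM in oligodendrocyte lineage-like cells and at 12.4 in medial habenula-like cells, and Cacng7 was at 51.2 and 27.2. The part of these cells in the all-cell difference of Cacna2d3 was not tested. Within cells of neuron-like and habenula-like clusters, which leave out the oligodendrocyte lineage-like cells, 7 of 34 members were called, against 11.6% of all genes in that fit, among them all 5 of the Pou4f1-positive cells: Cacna1h at -2.96, Cacng2 at 2.52, Cacna1b at -1.48, Scn2b at 1.30 and Cacng7 at 1.18. In medial habenula-like cells alone Cacng2 was at 0.879 and 0.247 CPM on the P7 plates and at 0 and 0.549 on the adult plates, whereas lateral habenula-like cells of adult plate 2 held 102.4.

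Levels by cell class are given as CPM of the pooled counts of a class, with exact Poisson 95% intervals that cover counting error only and no test. The members were left out of the genes used for clustering. Cacna1e was highest in medial habenula-like cells, at 1071.5 CPM (1058.6 to 1084.4). Cells with markers of both habenula divisions held 803.5 (775.1 to 832.8) and lateral habenula-like cells 540.6 (484.8 to 600.5). Neuron-like cells held 601.2 on E15 plate 2 and 497.4 on E18 plate 2, and 116.2 to 207.3 on the other plates with enough of them. Cacna1e was at 41.2 (29.3 to 56.3) in astrocyte-like and 26 (16.8 to 38.4) in progenitor-like cells. Cacna2d1 was highest in intermediate progenitor-like cells, at 1040.5 (1011.8 to 1070.1), and lowest in medial habenula-like cells, at 15.8 (14.3 to 17.4). This order of classes is also an order of stages, since the intermediate progenitor-like cells came almost wholly from the plates of E11 to E15, where their level ran from 447.0 to 2002.1 CPM, and the medial habenula-like cells from P4 to the adult. Between these 2 classes, class and stage cannot be told apart. Intermediate progenitor-like cells lay above neuron-like cells on each plate with enough of both, from 1839.5 against 999.8 on E11 plate 1 to 582.9 against 46 on E15 plate 2.

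Cacnb2, Cacng4 and Cacna2d3 were among the members with their highest level outside neurons. Cacnb2 was at 852.9 CPM (767.5 to 946.3) in ependymal and choroid plexus-like cells, against 247.1 (241.0 to 253.4) in medial habenula-like cells. Among ependymal and choroid plexus-like cells it was high on both plates with enough of them, at 1143.7 on E18 plate 1 and 733.6 on adult plate 2. These are total counts. Over all kept cells 83.6% of the Cacnb2 UMIs were unspliced, and 15 annotated genes overlap its span. Cacng4 was at 868.3 (809.9 to 929.3) in oligodendrocyte lineage-like cells, against 421.0 (411.5 to 430.5) in neuron-like cells. Within that class it was at 1226.7 in cluster 17, led by the precursor genes Gpr17 and Pdgfra, and at 55 in cluster 20, led by the myelin genes Mobp and Mag. Cacna2d3 was at 156.7 (132.5 to 183.8) in oligodendrocyte lineage-like cells, with 148.1 and 210.7 on the adult plates and 204.5 and 48.1 in clusters 17 and 20. In intermediate progenitor-like cells of the E11 plates it was at 260.9 and 39.6. Cacna1a was at 133.5 (111.3 to 158.8) in oligodendrocyte lineage-like cells and at 119.7 (114.7 to 124.8) in neuron-like cells, intervals that overlap. In clusters 17 and 20 it was at 183.3 and 20.6. By plate it was at 65.2 and 169.3 in oligodendrocyte lineage-like cells of the adult plates, and in neuron-like cells at 164.4 and 169.0 on the E11 plates and 18.3 on E15 plate 2. Cacna1c, also the pore of vascular smooth muscle calcium channels, was highest in cells with markers of both habenula divisions, at 533.9 (510.7 to 557.8), and at 455.9 (412.7 to 501.3) in mural and fibroblast-like cells. In the latter 1 plate stood apart, with 1797.4 in 15 cells of adult plate 2 against 221.4 to 336.8 on the other 3 plates with enough such cells.

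**Figure D5:**
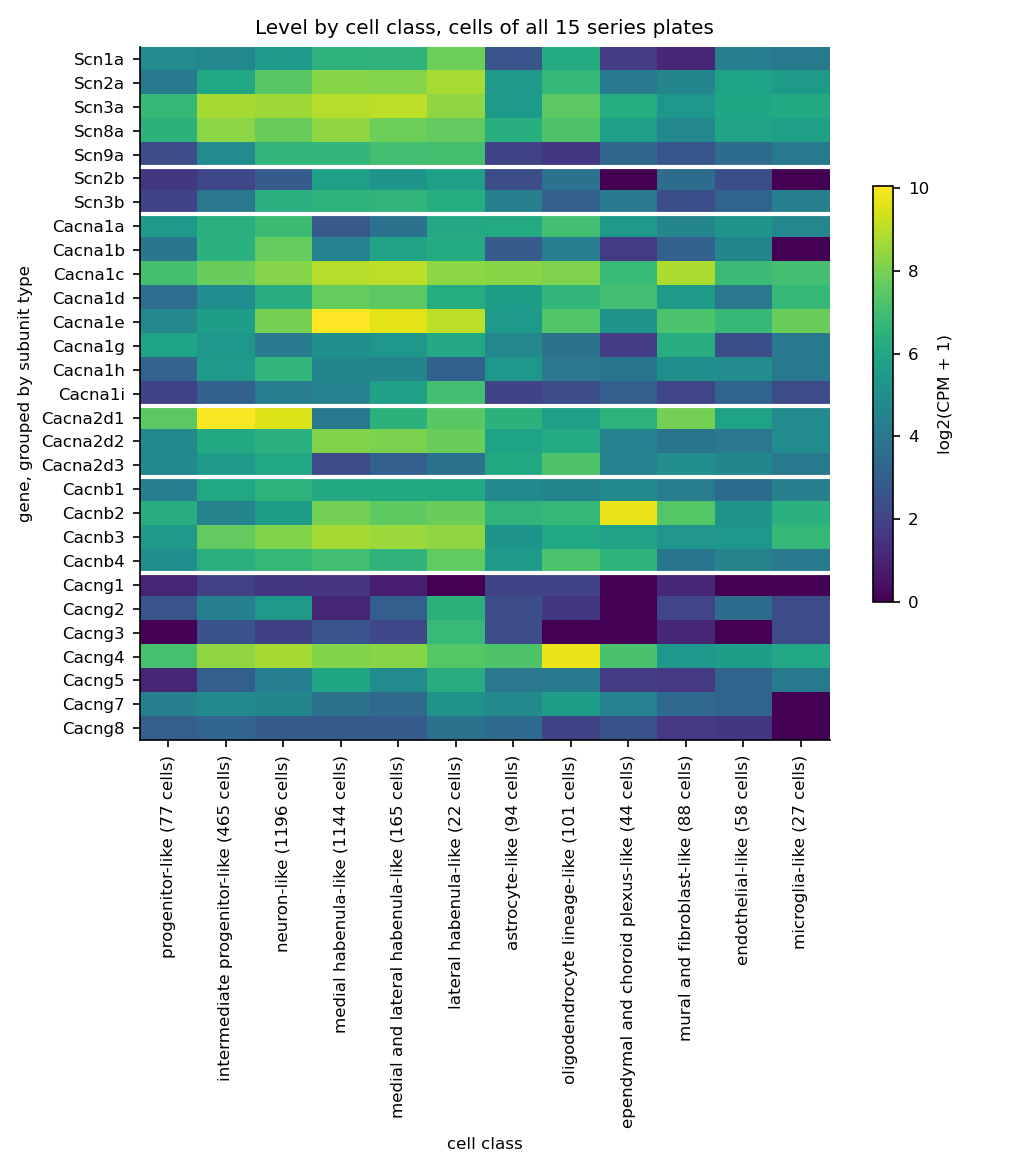
Level of 29 members with a tested slope (rows, by subunit type) in 12 cell classes (columns, with the number of cells), as log2(CPM + 1) of pooled counts from the 15 series plates. Cacnb2 peaks in ependymal and choroid plexus-like cells, Cacng4 in oligodendrocyte lineage-like cells and Cacna1e in medial habenula-like cells. The lateral habenula-like column rests on 22 cells. The 248 cells of clusters given no class name are not shown.

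The habenula divisions were compared within plates. On adult plate 2, 14 lateral habenula-like cells held 332156 counts and 162 medial habenula-like cells 3641889. Lateral-like cells held more Cacna1b, at 81.3 CPM (53.6 to 118.3) against 3.02 (1.51 to 5.4), 26.9-fold. Cacna2d1 was at 99.6 (68.4 to 139.5) against 10.4 (7.38 to 14.3), 9.54-fold, and Cacna1a at 36.1 (18.7 to 63.1) against 4.39 (2.51 to 7.13), 8.23-fold. The T-type gene Cacna1i was at 129.5 (93.7 to 174.4) against 23.3 (18.6 to 28.9), 5.55-fold. Cacng2 was at 102.4 (70.9 to 143.0) in lateral-like cells and at 0.549 (0.0665 to 1.98), which is 2 counts, in medial-like cells. Of the members with more than 3 counts in both classes, Cacna1b, Cacna2d1, Cacna1a and Cacna1i had the 4 widest ratios in either direction.

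Medial-like cells held more of others. Cacna1d was at 185.8 CPM (172.2 to 200.4) against 66.3 (41.5 to 100.3), 2.8-fold, Cacng5 at 72.8 (64.3 to 82.1) against 27.1 (12.4 to 51.4), 2.69-fold, and Scn2b at 142.9 (130.8 to 155.6) against 60.2 (36.8 to 93), 2.37-fold. Sodium channel genes split, since Scn1a was higher in lateral-like cells, at 217.0 (169.6 to 273.0) against 105.2 (94.9 to 116.2). The medial-like cells of this plate are mostly cluster 9, whose leading genes include Hspa1a, Hspa1b (heat-shock proteins) and Tac2, and all values come from 1 plate. Cells with markers of both divisions on earlier plates gave values in the same direction for Cacna2d1: 41.4 against 17.8 in medial-like cells on P4 plate 1, 103.2 against 19.3 on P7 plate 1 and 94.7 against 23 on P7 plate 2. For Cacna1b they were 101.3 against 29.7, 50.6 against 15.8 and 58.5 against 10.4. Not all members kept their direction. Scn1a was at 82.8 against 78.6, 94.3 against 87.6 and, turned, 84.6 against 89.6 on the same plates. Scn2b was at 23 against 20.6 on P4 plate 1, also turned, and at 33.5 against 46.1 and 32.5 against 60.1 on the P7 plates. Cacng5 kept its direction on these plates, at 29.9 against 47.9, 29.1 against 68.6 and 26.7 against 79.2. Pooled over all plates of the series it turned, at 75.3 CPM in the 22 lateral-like cells against 59.7 in medial-like cells.

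The members held a larger unspliced share than the median gene. Of the 30 members with at least 100 UMIs, the median unspliced share was 35%, against 10.6% over 15502 genes with as many, and 11 of the 30 (36.7%) were over 50% unspliced, against 15.7% of all. Their median span was 120 kb, against 23.5 kb. Cacna1c was 89.1% unspliced, Cacnb2 83.6%, Cacna2d1 75.1% and Cacna1e 54%, while Cacnb3 was 0.419% and Cacnb1 0.76%. Across these 30 members, which are not independent replicates and share libraries, the share and the gene span had a Spearman rho of 0.79, given as a description. With spliced counts alone, 19 of the 28 members tested had a called slope in all cells, against 38.4% of all genes in that fit, and 21 of 27 in Pou4f1-positive cells, against 42.4%.

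At E18 the left and right habenula were compared on 2 plates each of the second set. None of the 31 members tested was called by edgeR (0 of 31, with 0 at an unadjusted p under 0.05 and 0 by DESeq2), and 0% of all 15489 genes were called. The smallest p was that of Cacna2d1, at 235.4 and 250.5 CPM on the left plates, 220.5 and 175.0 on the right and 275.0 on the plate of both sides, where the left plates lay above the right ones and the log2 difference was 0.31 ± 0.19 (unadjusted p = 0.134, adjusted p = 1). Differences of the 31 members, left over right, ran from -0.65 for Cacng1 to 0.32 for Cacnb2, and 30 of them lay within 0.35 either way. Cacna1e was at 597.4 and 709.8 CPM on the left and at 570.6 and 681.0 on the right, which overlap. Erythroid genes summed to 19047.7 and 17219.3 CPM on the left plates and to 3410.1 and 265.5 on the right. Their part in these values was not tested.

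Partner genes were read from 2 lists of genes known to bind or anchor these channels or to work beside them. Of 14 sodium channel and axon initial segment partners tested, 5 were called higher and 0 lower over the stages in all cells, and of 14 tested calcium channel partners 4 were higher and 2 lower, against 20% and 18.2% of all genes. The largest slope was that of Stac, an adaptor of L-type channels, at 0.67 ± 0.14 (adjusted p = 0.00147), from 4.83 and 2.45 CPM at E11 and 2.39 and 1.51 at E18 to 38.9 and 43.3 at P4 and 26.4 and 46.9 in the adult. Nalcn, the sodium leak channel, rose by 0.53 ± 0.08 per step (adjusted p = 1.2e-04), from 27.6 and 23.3 CPM at E11 to 184.8 and 251.5 in the adult. Unc80, a subunit of that leak channel, rose by 0.51 ± 0.06 (adjusted p = 2.6e-05), and Cabp1, a calcium sensor that binds calcium channel pores, by 0.50 ± 0.15 (adjusted p = 0.0132). Cabp1 was at 1.6 and 2.26 CPM on the E18 plates and at 65.5 and 63.7 at P4, with both E18 plates low. It was also called lower from E13 to E15, at -3.01 ± 0.34 (adjusted p = 0.0173), and higher from E18 to P4, at 5.35 ± 0.28 (adjusted p = 9.9e-06). The 2 calcium channel partners with a falling slope, named after their values were seen, were Rem2 at -0.40 ± 0.09 (adjusted p = 0.00184) and Cachd1 at -0.43 ± 0.08 (adjusted p = 7.4e-04). In Pou4f1-positive cells 6 of 14 sodium channel partners had a slope called higher and 2 lower, and 4 and 3 of 14 calcium channel partners. Of all genes 22.9% and 19.5% were. From P7 to the adult 0 calcium channel partners were higher and 3 lower, of 16 in all cells and of 15 in Pou4f1-positive cells. Of all genes 1.82% and 2.34% were lower.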

How the data were processed

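The expected counts that the authors deposited are UMI counts per gene and well corrected for UMI collisions, as the values themselves show, in total and spliced tables. STAR 2.5.3a, Trim Galore and mm10 are named in the submitters' processing notes; whether counting used strand is stated in nothing used here. Spike-ins were left out, wells with at least 1000 counts, 500 genes and at most 20% mitochondrial counts were kept, no doublet caller was run, and counts were summed per plate and rounded. Because the files hold expected counts, rounded sums replaced the planned whole counts. Pou4f1-positive cells have at least 1 Pou4f1 count, on plates with at least 20 such cells.

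Every adjusted p is from edgeR 4.0.16 (TMM scaling, filter on low counts, quasi-likelihood test, Benjamini-Hochberg over all genes tested), in R 4.3.3 with limma 3.58.1. DESeq2 1.42.0 was an alternative, as were other filters, cells, scalings, spliced counts, a replicate block and leaving out each plate. The fits were tested on simulated data. Cells were clustered with scanpy 1.11.5 and leidenalg 0.10.2 without the members, and classes were named from marker lists. Total counts per plate set a value of 0.387 to 3.95 CPM for 3 counts. Counting intervals are exact Poisson intervals.

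The members, gene lists and rules were chosen with earlier results of these data known. Named are the members called in any comparison, the most abundant of each role, the main neuronal sodium channel genes and the left-right smallest p, with the others by range. Results of 2 members are not reported here, though counts over members include them. Which plates shared a sequencing run is not given, so run and stage cannot be told apart.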

Additional observations from a re-analysis of the deposited data

How the results depend on the processing

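Over the stage slopes every alternative stayed within 1.5 times the count of members called, from 12 to 19 in all cells (16 as reported) and from 16 to 22 in Pou4f1-positive cells (22). The share of all genes called ran from 14.7% to 46% in all cells and from 16.9% to 49.8% in Pou4f1-positive cells. The counts between stages moved more. With DESeq2 the count was 6 from E11 to E13 (1 as reported), 1 from E13 to E15 (0), 7 from P7 to the adult (4) and, in Pou4f1-positive cells, 1 from P4 to P7 (0). The shares of all genes in those fits were 5.45%, 2.55%, 8.08% and 0.251%. With no filter on low counts the count was 13 from E11 to E13, 4 from E13 to E15 and 19 from E18 to P4 (10 as reported), and in Pou4f1-positive cells 2 from P4 to P7 and 8 from P7 to the adult (5). The shares of all genes there were 4.56%, 3.32%, 12.8%, 0.379% and 4.08%. With only the 4 plates of both stages the count was 1 from E18 to P4 and 6 from P4 to P7 (0), against 3.58% and 3.64% of all genes. With spliced counts it was 2 from P7 to the adult, against 3.31%. Without cells of very high counts, an alternative chosen after seeing the data and run in all cells and between sides, it was 2 from E11 to E13 and 2 from P7 to the adult, against 2.03% and 3.12%. With cells of neuron-like and habenula-like clusters in place of Pou4f1-positive cells, it was 1 from P4 to P7, against 0.48% of all genes. This choice leaves E18 and E13 a single plate. From E18 to P4 fewer members and a smaller share of all genes were called with it. In place of all kept cells, an alternative chosen after seeing the data, Pou4f1-positive cells gave 3 from E11 to E13 (1.78% of all genes). These clusters, also chosen after seeing the data, gave more members than all kept cells from E11 to E13 and from E13 to E15. They also gave a larger share of all genes in both steps. Leaving out each plate gave 0 to 6 from E11 to E13, 0 to 2 from E13 to E15, 0 to 9 from E15 to E18, 2 to 21 from E18 to P4 and 0 to 7 from P7 to the adult, and in Pou4f1-positive cells 2 to 17 from E18 to P4 and 0 to 7 from P7 to the adult. In all cells, fits without a plate of another stage called 0.607% to 5.5% of all genes from E11 to E13. They called 0.00537% to 1.78% from E13 to E15, and 0.0322% to 0.306% with 0 members from E15 to E18. In Pou4f1-positive cells such fits called 14.5% to 22.9% from E18 to P4, with 9 to 15 members. From P7 to the adult they called 1.63% to 5.36%, with 1 to 7 members. The share of all genes called moved between the fits that left out each plate as well. Where no construction shows it, the cause was not tested. Of 1496 alternative values of single called members 1219 kept their call, 276 lost it and 1 turned: Cacna2d3 from E18 to P4 in Pou4f1-positive cells was 0.32 with spliced counts, where few of its UMIs remain. Left against right gave 0 members in all 13 alternatives.

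Whether replicate numbers pair the plates is not known. The difference of plate 1 from plate 2 within a stage correlated between stages at -0.496 to 0.397, over 0.1 in 6 of 21 stage pairs. Between left and right at E18 it correlated at 0.271, and with the replicate block 0 of 31 members were called there (0.0387% of all genes). With the replicate block 14 members had a called slope in all cells and 19 in Pou4f1-positive cells, against 34.3% and 37.9% of all genes. From E18 to P4, 12 and 14 were called with it, against 16.7% and 19%. Of the 2 adult plates 1 holds 56 cells, and members under 20 counts in all cannot be compared.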
